A study of Homo sapiens with 7 samples.

Results

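Integrins are the receptors by which a cell holds its matrix, and their genes were followed here together with the genes of the focal adhesion proteins bound to their tails. The set holds 42 genes, taken as every non-control probe whose gene name on the array is 1 of 42 listed names, out of 34809 gene names on the array. It comprises 17 α subunits, 8 β subunits and 17 adhesion proteins, read by 52 probes. The cells were ACHN, a human renal carcinoma line. ACHN-EV (4 arrays) had been infected with retrovirus from the empty pBabe-hygro vector, and ACHN-HOTAIR (3 arrays) with the same vector carrying human HOTAIR cDNA. Both were then selected with hygromycin, so every array comes from transduced and drug-selected cells. Whether a line was a pool or a clone, and whether the arrays of a group came from separate cultures, is not given in the sources used here. The p-values below therefore measure the spread between these samples, which may be technical.

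An integrin is a heterodimer of an α and a β chain that binds laminin, collagen, fibronectin or counter-receptors on other cells. Talins and kindlins bind the β tail and switch the receptor on, and vinculin, zyxin, tensins and the ILK, PINCH and parvin complex tie it to actin. Focal adhesion kinase, Src, p130Cas and paxillin carry the signal inward, and in kidney epithelium the laminin receptors hold tubule cells to their basement membrane. IGFBP2, the protein followed by the study, is known to carry an RGD sequence that can bind the α5β1 integrin, which is why ITGA5, ITGB1 and ILK are described in full here.

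Signals are given as log2 of the processed intensity minus the 75th percentile of the same array, so a value of 0 is that percentile, and signals of different probes are not compared with each other. The 75th percentile itself lay between 523 and 649 intensity units, and 54.0% to 57.1% of the spots of an array were well above background. The transduced gene matched its labels. HOTAIR was at -6.29, -6.97, -6.42 and -7.07 on the EV arrays, well above background on none, and at -3.12, -3.24 and -2.58 on the HOTAIR arrays, well above background on all 3. The adjusted p was 0.00162 (limma with Benjamini-Hochberg adjustment). With signals below the lowest spot well above background raised to that spot, the difference was at least 4.80-fold, or 2.26 on the log2 scale, and normexp background correction gave a log2 difference of 1.06. IGFBP2 had a log2 difference of 2.37 (SE 0.16) with the same adjusted p by limma, and of 1.22 after normexp background correction. Of the renal epithelial markers described here, PAX8, PAX2, KRT8, KRT18 and EPCAM were well above background on all 7 arrays and CDH6 on none.

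The array EV 2 stood apart from the other EV arrays. It lay at 74.0 on the first principal component (51.8% of the variance), against -18.1 to -8.50 for the other EV arrays, and HOTAIR 3 lay at 21.1 against -29.4 and -21.3 for the other HOTAIR arrays. In 2509 genes with several tested probes, the most upstream probe was compared with the most downstream one, each as a deviation from the mean of the other arrays of the group. The upstream probe was the lower of the pair in 66.6% of these genes on EV 2, with a median log2 difference of -0.26, and in 66.7% on HOTAIR 3, with a median of -0.19. On the other 5 arrays that share was 28.7% to 45.2%. All arrays lay on 1 slide, and each group filled positions in its own row of that slide, so an effect of the row cannot be told apart from one of the group.

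The array reads integrins and their linkers through 60-base probes, and the sequences of 4 of them are shown because their genes are named throughout and because the probes lie in coding sequence. They are printed 5′ to 3′ as listed for the array, with cysteine codons in the open reading frame in capitals. The cysteines of the ITGB1 probe belong to the repeats that stiffen the β1 stalk, and those of the ZYX and PXN probes to LIM domains, where cysteines hold zinc.
ITGB1: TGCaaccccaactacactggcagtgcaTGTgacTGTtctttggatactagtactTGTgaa
ILK: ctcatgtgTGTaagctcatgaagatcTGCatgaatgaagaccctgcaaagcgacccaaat
ZYX: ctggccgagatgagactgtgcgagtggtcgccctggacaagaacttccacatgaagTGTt
PXN: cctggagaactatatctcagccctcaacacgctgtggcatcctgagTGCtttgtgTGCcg
On hg19, the build of the array's annotation, they map to chr10:33200507-33200566 on the minus strand for ITGB1, chr11:6631739-6631798 on the plus strand for ILK, chr7:143087000-143087059 on the plus strand for ZYX and chr12:120651646-120651705 on the minus strand for PXN. The ITGB1 probe holds 4 such codons in 20, whereas the ILK and PXN probes hold 2 in 19 and the ZYX probe holds 1 in 19. This PXN probe is the dimmer of a pair, and the brighter one, at chr12:120648265-120648324, represents the gene below. The exon or UTR class of the other probes was not analysed here.

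Most of the adhesion machinery was measured in ACHN cells. Of the 42 genes, 34 were well above background on all 7 arrays (81.0%, against 45.1% of all gene names on the array). All 17 adhesion proteins were among them, as were 10 α and 7 β subunits. The collagen-binding ITGA1, ITGA10 and ITGA11, the laminin-binding ITGA3, ITGA6 and ITGA7, the RGD-binding ITGA5 and ITGAV, ITGA4 and ITGAE were the α subunits measured on every array. ITGA2B, the platelet fibrinogen receptor chain, ITGA8, and the leukocyte chains ITGAL and ITGAX were well above background on no array. ITGAM was so on HOTAIR 3 alone, ITGA2 on EV 1, EV 2 and HOTAIR 3, ITGA9 on EV 1, EV 3, HOTAIR 1 and HOTAIR 2, and ITGB7 on EV 1, EV 3, EV 4 and HOTAIR 3. These 8 genes were not tested.

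**Figure D1:**
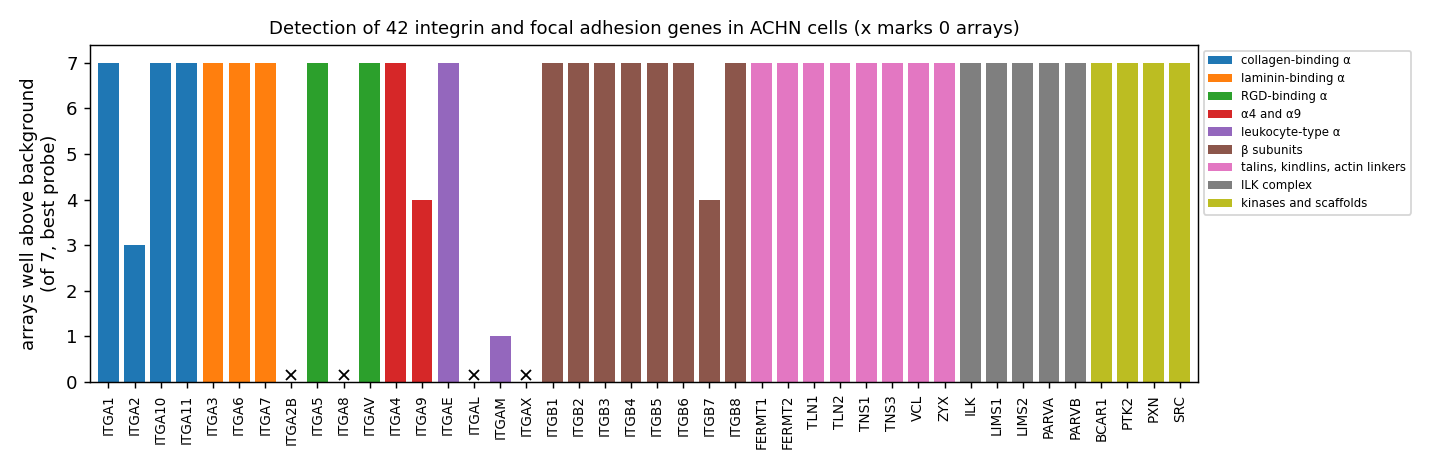
Number of arrays (of 7) on which the best probe of each of the 42 genes was well above background, with bars coloured by role and crosses at 0. The 17 adhesion proteins reached 7 arrays, and the genes below 7 were all integrin subunits, 7 α chains and ITGB7.

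Because an integrin works only as a pair, detection was also read by heterodimer. Of 23 known pairs among these genes, 14 had both subunits well above background on all 7 arrays. ITGB1, the shared β chain of most matrix receptors, had 9 of its 12 partners at that level. ITGAV was measured together with each of its 5 possible β partners, ITGB1, ITGB3, ITGB5, ITGB6 and ITGB8. ITGA6 and ITGB4, which form the hemidesmosome receptor for laminin, were both measured on every array. ITGB2, the β chain of leukocytes, was well above background on all arrays while its 3 partners in this set, ITGAL, ITGAM and ITGAX, were not. Partners outside the set were not examined. Of the leukocyte markers described here, CD14 and CD68 were also measured on every array, the pan-leukocyte PTPRC on 3, and CD3E on none. Their part in the ITGB2 signal was not tested.

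**Figure D2:**
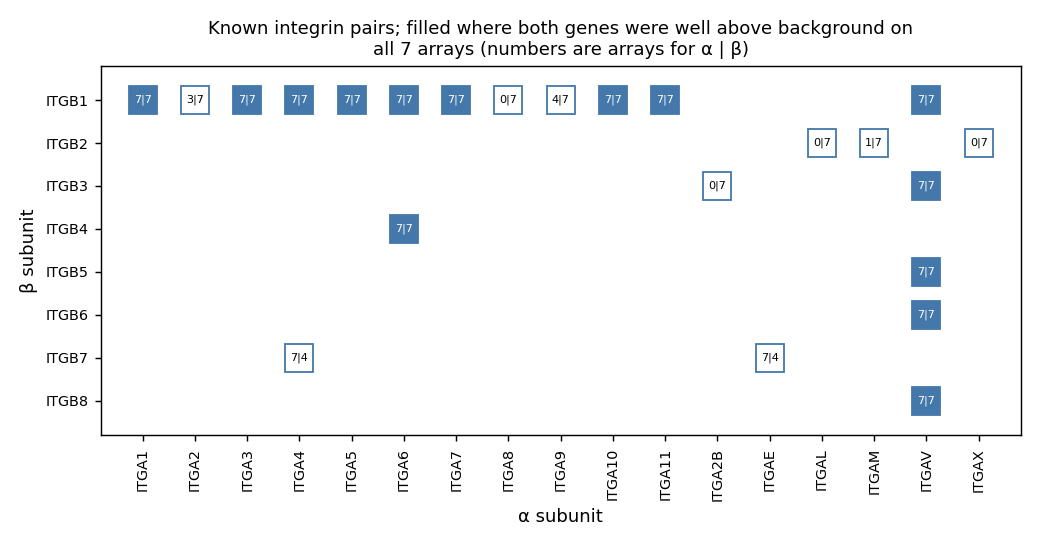
Known integrin pairs by α subunit (columns) and β subunit (lines), with the number of arrays on which each gene was well above background written as α | β. The 14 filled squares mark pairs measured on all 7 arrays, 9 of them with ITGB1, and the squares of ITGB2 and ITGB7 are open.

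HOTAIR arrays were compared with EV arrays to learn whether the adhesion genes differed between the cell lines. None of the 34 tested genes passed the adjusted limit (limma with Benjamini-Hochberg adjustment, lowest adjusted p = 0.566, ITGB4), against 0.180% of all tested genes. At an unadjusted p under 0.05, 2 of 34 passed by limma (5.88%, against 6.11% of all tested genes). ITGB4 was on the lower side (background 2.32%) and ITGA11 on the higher side (background 3.79%). The share in the set was thus near that of the background. Without EV 2 the unadjusted count was 3 of these 34 (8.82%, against 7.73% of all genes), with ITGA6 added, and without HOTAIR 1 it was 1 (2.94%, against 4.03%). ITGB7 also passed without EV 2, but it was tested there only because the remaining EV arrays, where it was the higher, were all well above background. Groups of arrays did not overlap for 3 genes (8.82%, against 8.05% of all genes), ITGB4 on the lower side and ITGA11 and ITGA7 on the higher side. The background of non-overlapping genes was 4.43% on the higher and 3.62% on the lower side. The rank product, the method named in the study's methods, called 0 of these genes, against 0.416% of all probes (85 of 20419), with a lowest percentage of false positives of 0.740 on a scale of 0 to 1.

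The differences were small. The median absolute log2 difference was 0.085 over the 34 genes and 0.13 over all genes tested, and the signed median was -0.025 against 0.011. Differences were above 0 in 14 genes and below 0 in 20, while 52.4% of all genes lay above 0. At the probe representing each gene, the 95% interval of the difference lay inside a 2-fold change for all 34 genes (88.0% of all genes). For 25 genes it lay inside a 1.5-fold change (60.0% of all genes). The half-width of that interval ranged from 0.22 to 0.72 with a median of 0.34. Dimmer tested probes of PXN (-0.73 to 1.73) and ITGA4 (-0.42 to 1.88) had intervals that reached past a 2-fold change. By family, 8 of 10 α subunits lay above 0 (median 0.091), 5 of 7 β subunits below 0 (median -0.11) and 13 of 17 adhesion proteins below 0 (median -0.048). None of these shifts was tested. Without EV 2 the sign turned in 12 of the 34 genes, and the adhesion proteins no longer lay mostly below 0. Most α subunits still lay above 0 and most β subunits below 0 without it. Of the adhesion proteins, ILK, TLN1, PARVB, SRC, FERMT2 and LIMS1 then lay above 0. ITGB1, ITGA1 and ITGA3 also turned to above 0, while ITGB3, ITGB5 and ITGA10 turned to below 0. In RNA of whole cultures, fewer cells that express a gene and less RNA per cell cannot be told apart.

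**Figure D3:**
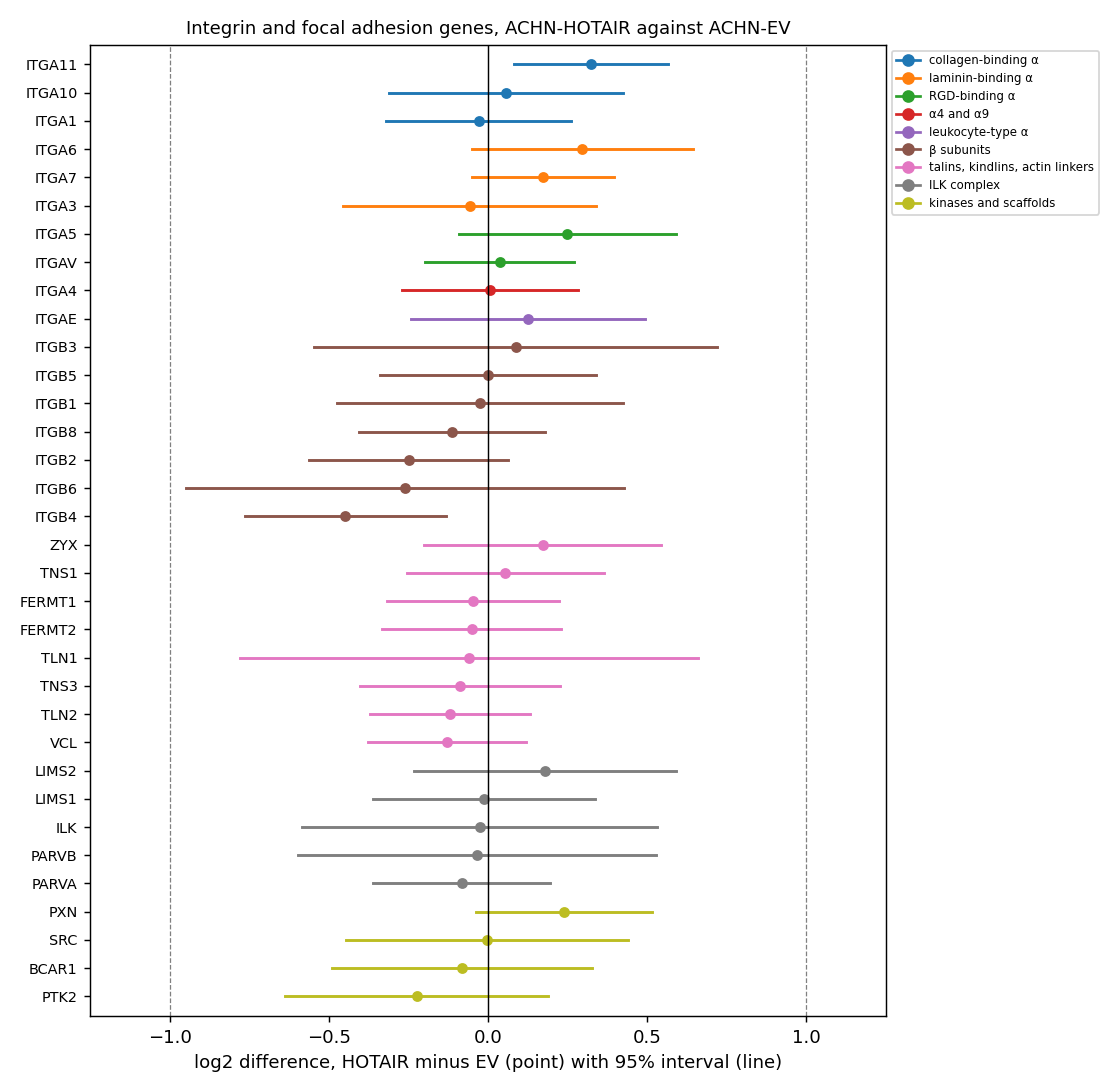
Log2 difference HOTAIR minus EV (points) with 95% intervals from limma (lines) for the 34 tested genes, coloured by role, with dashed lines at a 2-fold change. The intervals of ITGA11 and ITGB4 leave out 0 before adjustment, and all 34 stay inside the dashed lines.

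Among the laminin receptors, ITGB4, the β4 chain that anchors epithelial cells through hemidesmosomes, had the largest difference among the probes that represent the genes. Its probe (chr17:73753824-73753883, plus strand, hg19) read -0.24, -0.37, -0.33 and -0.47 on EV 1 to EV 4 and -0.62, -0.72 and -1.06 on HOTAIR 1 to HOTAIR 3. Each HOTAIR array was below each EV array, with HOTAIR 3 the lowest. The log2 difference was -0.45 (SE 0.14), with adjusted p = 0.566 by limma and p = 0.0286 in the exact two-sided permutation test, the smallest that 35 splits can give. The α6 chain that pairs with it leaned the other way. ITGA6 (chr2:173370556-173370615, plus strand) read 0.90, 1.30, 0.86 and 0.83 in EV and 1.16, 1.23 and 1.42 in HOTAIR, so that EV 2 lay among the HOTAIR arrays and the other 3 EV arrays below them. Its difference was 0.30 (SE 0.15, limma adjusted p = 0.926), and the second ITGA6 probe also gave 0.30 (limma adjusted p = 0.946). Without EV 2 the difference of the first probe was 0.41, with adjusted p = 0.394 by limma. On the second probe EV 2 was instead the lowest EV array, at -1.30 against -0.69 to -0.60 on the others. Leaving EV 2 out therefore lowers the difference of the second probe, so the 2 probes match only with EV 2 included.

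ITGA7, a laminin receptor best known from muscle, read -2.04, -2.11, -2.07 and -2.01 in EV and -1.93, -1.81 and -1.92 in HOTAIR. The groups did not overlap, yet the gap between the nearest arrays was narrow. The difference was 0.17 (SE 0.096, limma adjusted p = 0.936), with p = 0.0286 in the exact permutation test. ITGA3, whose α3β1 receptor is abundant in kidney epithelium, had a difference of -0.058. For ITGA3, EV 2 was the highest array, 0.58 above the median of the other EV arrays.

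In the collagen receptors, ITGA11 was the member whose groups did not overlap. This chain is known mostly from fibroblasts, and its probe (chr15:68594071-68594130, minus strand) was dim, at -4.26, -4.28, -4.24 and -4.35 in EV and -3.84, -3.96 and -4.07 in HOTAIR. All HOTAIR arrays lay above all EV arrays. The difference was 0.32 (SE 0.10), with adjusted p = 0.632 by limma. It was 0.11 after normexp background correction and 0.19 with quantile normalization, but 0.37 without scaling. The exact permutation test gave p = 0.0286, again its smallest possible value, which adds little to the lack of overlap. Fibroblast markers COL1A1, COL1A2, COL3A1, PDGFRB, DCN and LUM were well above background on 0 arrays, with a summed signal of 0.0384 to 0.0527 in EV and 0.0430 to 0.0517 in HOTAIR. ITGA1 and ITGA10, the other measured collagen chains, had differences of -0.030 and 0.056.

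ITGA5, the α chain of the fibronectin receptor, read -0.51, -0.80, -0.71 and -0.62 in EV and -0.13, -0.48 and -0.62 in HOTAIR (chr12:54789656-54789715, minus strand). HOTAIR 1 was the highest array, and HOTAIR 3 lay within the EV range. The difference was 0.11 without HOTAIR 1 and, over all arrays, 0.25 with a 95% interval of -0.091 to 0.59 (limma adjusted p = 0.939). Its partner ITGB1 read 0.91, 1.70, 1.24 and 1.23 in EV and 1.33, 1.05 and 1.35 in HOTAIR. EV 1 was the lowest array and EV 2 the highest, so the HOTAIR arrays lay inside the EV range. The difference was -0.025, with a 95% interval of -0.47 to 0.42 (limma adjusted p = 0.996), and it was 0.12 without EV 2. Neither chain of α5β1 passed the test. The interval of ITGB1 lay inside a 1.5-fold change, and that of ITGA5 reached just past it on the higher side.

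ITGAV, the α chain of the vitronectin receptors, was even across the arrays, from 2.93 to 3.11 in EV and from 2.98 to 3.11 in HOTAIR, with a difference of 0.037. Its β partners differed in spread. ITGB3 ran from -0.62 on EV 2 to 0.37 on EV 1 and had a difference of 0.087 with the widest interval of the β chains but for ITGB6. ITGB6, an epithelial chain that activates TGF-β, read -2.37, -3.11, -2.60 and -3.18 in EV and -2.70, -2.85 and -3.68 in HOTAIR. HOTAIR 3 alone lay below the EV range, and the difference was -0.26 (limma adjusted p = 0.993) and 0.043 without HOTAIR 3. ITGB5 was at 0.00022 and ITGB8 at -0.11.

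Of the subunits known from leukocytes, ITGB2, ITGAE and ITGA4 were measured on every array, and none reached the limit. ITGB2 read 0.11, 0.57, 0.30 and 0.44 in EV and 0.014, 0.12 and 0.18 in HOTAIR. Only EV 1 lay within the HOTAIR range, and the difference was -0.25 (SE 0.13, limma adjusted p = 0.932). ITGAE, the chain that binds E-cadherin, had a difference of 0.13 and was lowest on EV 2. ITGA4, which binds VCAM-1 and fibronectin, had a difference of 0.0064 at its brightest probe.

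**Figure D4:**
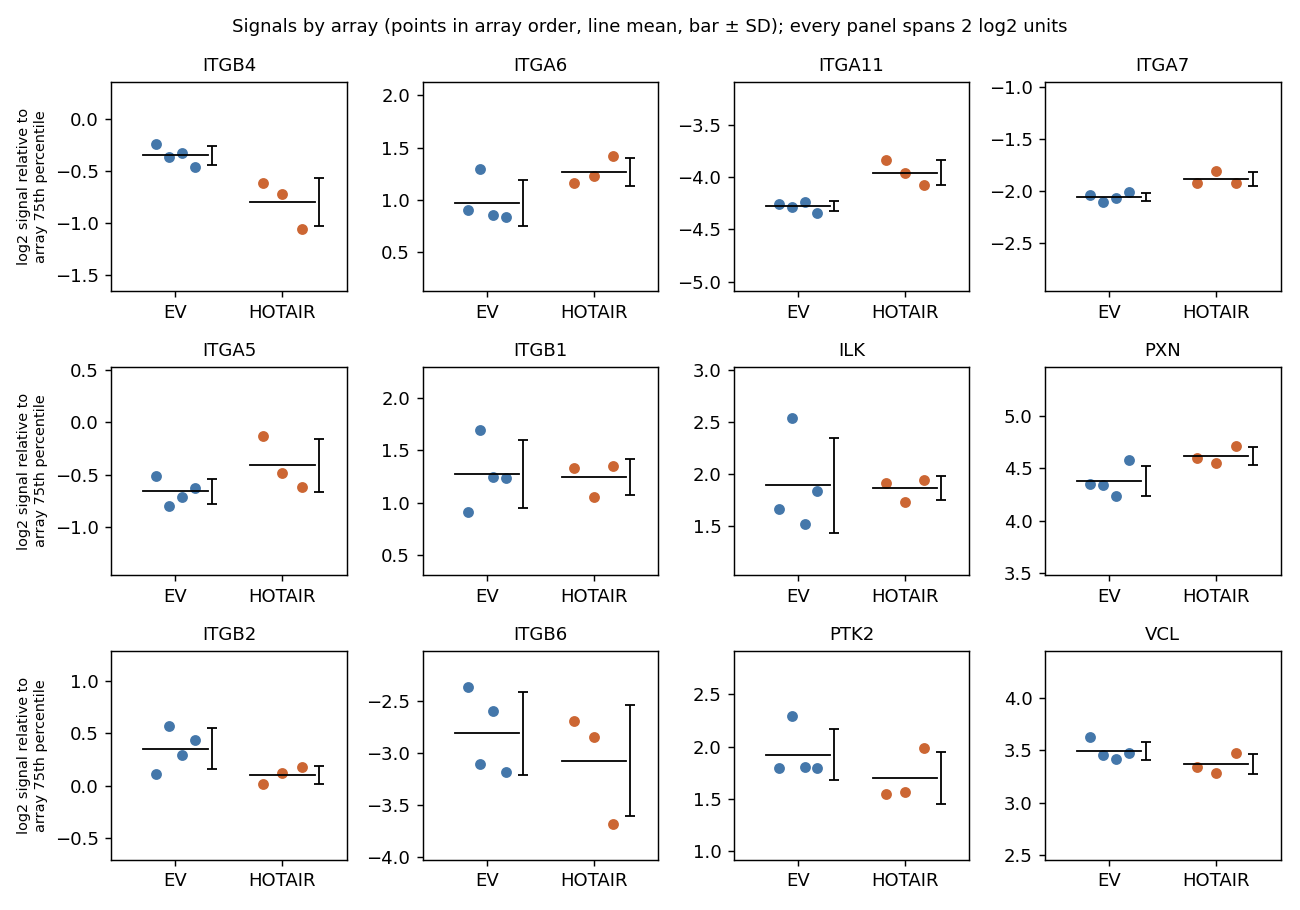
Signal of 12 genes on the log2 scale, relative to the 75th percentile of its array, a point per array in array order within EV (blue, 4) and HOTAIR (orange, 3), with the group mean (line) and SD (bar). Each panel spans 2 log2 units on its own scale, and the groups separate for ITGB4, ITGA11 and ITGA7, whereas EV 2 is the highest EV point for ITGA6, ITGB1, ILK, ITGB2 and PTK2.

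None of the proteins that switch integrins on passed the limit. TLN1, the main talin, read -0.72, 0.62, -0.58 and -0.10 in EV and -0.17, -0.41 and -0.18 in HOTAIR. EV 2 was 1.20 above the median of the other EV arrays, the largest such deviation among the probes that represent the genes. The difference between groups was -0.059 with a 95% interval of -0.78 to 0.66, the widest among those probes. Without EV 2 it turned to 0.21. TLN2 was at -0.12. The kindlins FERMT1 and FERMT2 had differences of -0.048 and -0.052 at their brightest probes, and of -0.31 and -0.18 at their second probes. Of the actin linkers, VCL read 3.62, 3.46, 3.42 and 3.48 in EV and 3.34, 3.28 and 3.47 in HOTAIR. HOTAIR 1 and HOTAIR 2 lay below the EV range, and the difference was -0.13 (SE 0.11, limma adjusted p = 0.993). ZYX, which marks mature adhesions under tension, was at 0.17 (limma adjusted p = 0.993) and at 0.027 without HOTAIR 1, TNS1 at 0.054 and TNS3 at -0.087.

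The ILK complex, a scaffold of ILK, a PINCH protein (LIMS1 or LIMS2) and a parvin, showed no member past the limit. ILK read 1.66, 2.54, 1.52 and 1.84 in EV and 1.92, 1.73 and 1.94 in HOTAIR. EV 2 was the highest array, and the HOTAIR arrays lay inside the EV range. The difference was -0.026 with a 95% interval of -0.58 to 0.53 (limma adjusted p = 0.996), and 0.19 without EV 2. PARVB was also highest on EV 2, at 0.42 against -0.58 to -0.18 on the other EV arrays, and its difference was -0.035, or 0.17 without EV 2. LIMS1 and PARVA had differences of -0.013 and -0.083. LIMS2 read -3.04, -3.19, -3.29 and -2.73 in EV and -2.67, -2.83 and -3.16 in HOTAIR. Its groups overlapped, and the difference of 0.18 was not past the limit (SE 0.18, limma adjusted p = 0.993). It ran from 0.070 without HOTAIR 1 to 0.32 without HOTAIR 3.

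Of the kinases and their scaffolds, PXN, the paxillin adaptor, leaned higher and PTK2, focal adhesion kinase, lower. PXN read 4.35, 4.35, 4.24 and 4.59 in EV and 4.60, 4.55 and 4.71 in HOTAIR. Only EV 4 reached the HOTAIR range, and the difference was 0.24 (SE 0.12, limma adjusted p = 0.926). PTK2 read 1.79, 2.29, 1.81 and 1.80 in EV and 1.54, 1.56 and 1.98 in HOTAIR. The EV arrays other than EV 2 lay close together, HOTAIR 1 and HOTAIR 2 lay below them, and HOTAIR 3 lay above. The difference was -0.22 (SE 0.18, limma adjusted p = 0.990), -0.10 without EV 2 and -0.37 without HOTAIR 3. SRC had a difference of -0.0035 and BCAR1, which encodes p130Cas, of -0.081.

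Single arrays spread unevenly. The SD over EV arrays ranged from 0.041 for ITGA7 to 0.60 for TLN1 (median 0.16), and that over HOTAIR arrays from 0.047 for ITGAE to 0.53 for ITGB6 (median 0.16). EV 2 was the highest or lowest EV array in 24 of the 34 genes, against 13, 14 and 17 for EV 1, EV 3 and EV 4. Its median absolute deviation from the EV median was 0.18 in these genes and 0.21 in all genes. That of the other EV arrays was 0.069 to 0.091 in these genes and 0.084 to 0.11 in all genes. Besides TLN1, the genes highest on EV 2 relative to the median of the other EV arrays were ILK (0.87), PARVB (0.86), ITGA3 (0.58), SRC (0.53), PTK2 (0.49), ITGB1 (0.47) and ITGA6 (0.44), and the lowest were ITGB3 (-0.51), ITGB6 (-0.51), ITGAE (-0.47) and ITGA10 (-0.38). Without EV 2 the sign of the group difference turned in 12 of the 34 genes, among them ITGB1, ILK, TLN1, PARVB, ITGA3 (0.070) and SRC (0.10).

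**Figure D5:**
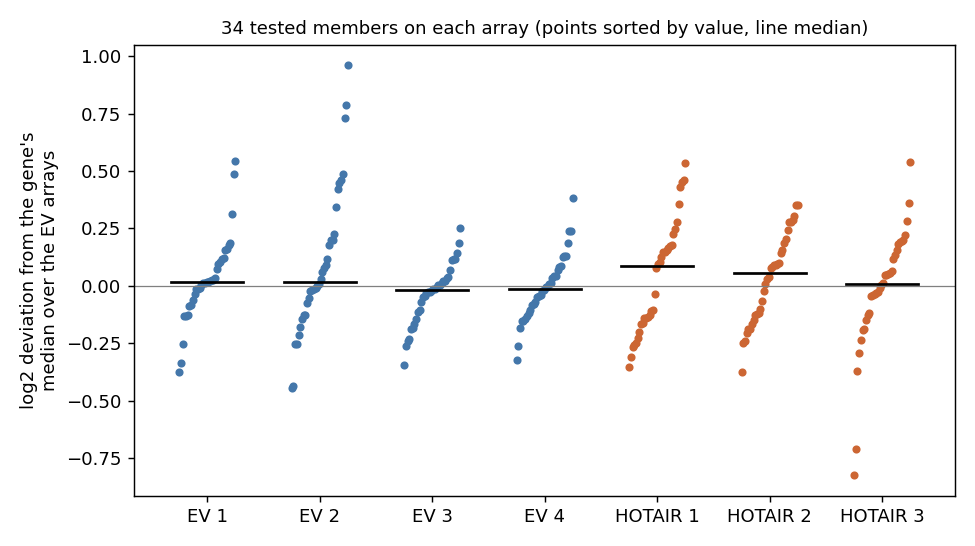
Deviation of each of the 34 tested genes from its median over the EV arrays (log2), as points sorted by value within each array, with the array's median as a line. EV 2 reaches 0.96 above the EV median, the largest deviation, and HOTAIR 3 reaches 0.82 below it.

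Several genes were read at more than 1 place. In the 6 genes with several tested probes (ITGA4, ITGA6, PXN, FERMT1, FERMT2 and TNS1) all probes of a gene gave a group difference of the same sign. However, the upstream PXN probe and the most upstream ITGA4 probe were well above background on 3 and 2 EV arrays and on all 3 HOTAIR arrays. They were tested only through the HOTAIR group, where they were the higher, so their signs do not count as agreement. The upstream PXN probe, printed above, read -3.85, -5.84, -3.74 and -4.02 in EV and -3.47, -3.66 and -4.45 in HOTAIR, so EV 2 and HOTAIR 3 were its lowest arrays. Its group difference was 0.50 (limma adjusted p = 0.993), with the EV mean pulled to -4.36 by EV 2. On the downstream PXN probe EV 2 was not set apart, at 4.35. The upstream ITGA6 probe (chr2:173369203-173369262) was lowest on EV 2, at -1.30 against -0.69 to -0.60 on the other EV arrays, whereas the downstream probe was highest there. ITGA4 had 3 tested probes, and the most upstream one (chr2:182322335-182322394) read -6.76 on EV 2 against -5.32 to -4.73 on the other EV arrays. That probe had a group difference of 0.73 (limma adjusted p = 0.966) and was well above background on 5 arrays. In 6 of these 6 genes the upstream probe was lower than the downstream probe on EV 2, relative to the other EV arrays, and in 5 of 6 on HOTAIR 3. The part of this pattern in the differences of single probes was not tested.

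The wider integrin pathway gave the same picture of few separations. Of 149 further genes on the array in 5 lists (adaptors and actin linkers, signalling proteins, inactivators and trafficking proteins, membrane partners, and ligands), 125 were tested and 0 passed the adjusted limit by limma. At an unadjusted p under 0.05 by limma, 6 did (4.80%, against 6.11% of all genes), 3 higher and 3 lower, and in 9 (7.20%, against 8.05%) the groups did not overlap. The 3 higher genes were PDLIM7, LAMB3 and DPT, and the 3 lower genes ELMO2, ITGBL1 and NPNT.

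Of 24 tested adaptors and actin linkers, 11 lay above 0 (median -0.029). PDLIM7, a PDZ and LIM protein of the actin cytoskeleton, had the largest difference of all 5 lists. It read 2.25, 1.76, 2.39 and 2.60 in EV and 3.09, 3.08 and 2.83 in HOTAIR. All 3 HOTAIR arrays were higher than the highest EV array, and the log2 difference was 0.75 (SE 0.20, limma adjusted p = 0.457). TENC1, a tensin, was at 0.32, DST, which links integrins to intermediate filaments, at -0.19, and FLNC, a filamin, at -0.14. FLNC was at -0.75 on EV 2 against 0.97 to 1.22 on the other EV arrays. Without EV 2 the differences were 0.14 for TENC1, -0.077 for DST and -0.60 for FLNC, and that of FLNC was 0.17 without HOTAIR 3.

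Among 36 kinases, phosphatases and small GTPase regulators, 24 lay below 0 (median -0.029). ELMO2, which acts with DOCK1 to activate Rac, read -0.12, -0.29, -0.27 and -0.41 in EV and -0.58, -0.64 and -0.70 in HOTAIR. The groups did not overlap, and the difference was -0.36 (SE 0.11, limma adjusted p = 0.565). ASAP1 was at -0.23, MAPK3 at 0.30 and RAPGEF1 at 0.27, each with overlapping groups, and without EV 2 they were at -0.0044, 0.018 and -0.24. Of 15 inactivators and trafficking proteins, 8 lay above 0 (median 0.034), with RAB21 at -0.20, RAB11FIP1 at -0.17, DOK1 at 0.19 and NISCH at 0.13, which turned to -0.10 without EV 2.

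Of 19 membrane partners, 10 lay above 0 (median 0.014). ITGBL1, a secreted protein related to β integrins, had a difference of -0.29 (limma adjusted p = 0.772) with every HOTAIR array below every EV array. CAV2 was at -0.29, and the tetraspanins CD63 and CD82 were at 0.26 and 0.19. Of 31 ligands, 22 lay above 0 (median 0.082). LAMB3, a chain of laminin-332, which is the ligand of α6β4, read -0.68, -0.55, -0.89 and -0.70 in EV and -0.41, -0.42 and -0.26 in HOTAIR. The groups did not overlap, and the difference was 0.34 (SE 0.12, limma adjusted p = 0.715). DPT, dermatopontin, was at 0.43 (limma adjusted p = 0.772) and ICAM2 at 0.36, or 0.17 without HOTAIR 2. The matrix proteins NPNT, a ligand of α8β1, and THBS1 were at -0.37 and -0.32 (limma adjusted p = 0.800 and 0.878).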

How the data were processed

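Total RNA of ACHN cells was labelled with Cy3 and hybridised to 7 SurePrint G3 Human GE arrays. The authors deposited Feature Extraction 10.7.3.1 output with a background-subtracted processed intensity per spot, and a table of these intensities, linear and unscaled (440783 values, all within 0.498% of the spot's). Here log2 intensities minus the array's 75th percentile over 58717 non-control spots were computed in R 4.3.3 without outlier spots (408 to 600 per array), and averaged by probe. A probe was tested with limma 3.58.1 (lmFit, eBayes, Benjamini-Hochberg adjustment over all tested probes, limit 0.05) if either group had it well above background throughout (20419 probes, 16664 genes). The brightest tested probe represents a gene. An exact permutation test over 35 splits was added for single genes.

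Members, lists and tests were chosen with earlier results of these data known. Described in full are ITGA5, ITGB1 and ILK, members past either limit or without overlap, the 5 largest differences each way and, per further list, the 2 largest each way. LAMB3 was named after its values were seen. Some cell type markers are not reported here. Alternatives concerned normalization, background correction, percentile, filter, floor, probe rule, moderation, array weights, replicate block, the rank product (12 array pairs, 100 permutations), the Mann-Whitney U test and arrays left out. All 52 probes matched RefSeq (GRCh38.p14) symbols and 49 had hg19 coordinates. The number of arrays limits the precision.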

Additional observations from a re-analysis of the deposited data

Results flagged for a closer look

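In 4 of 56 genes examined, a single EV array lay far from the other 3 by Dixon's criterion (gap over range above 0.829), where chance gives about 1 in 20 groups, or 2.8. All 4 concern EV 2. For PTK2 the gap took 0.972 of the range, with EV 2 at 2.29 and the next array at 1.81. For ITGA6 it took 0.854 of the range, with EV 2 at 1.30 and the next at 0.90. EV 2 was low for FLNC, at -0.75 against 0.97 for the next array (0.871 of the range), and for MAPK3, at -1.96 against -0.94 (0.833 of the range). The HOTAIR group of 3 arrays was not examined in this way.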

How the results depend on the processing

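Under all 21 alternatives, 0 members passed the adjusted limit (limma lowest adjusted p 0.0829, ITGB4 with array weights). Few of all genes passed it either, from 0 of 16664 with the replicate block to 284 of 16664 with array weights. The Mann-Whitney U test could not pass it at all. The unadjusted count of 2 by limma became 1 (2.94%) with quantile normalization, trend and robust moderation or the replicate block (6.40%, 5.83% and 5.57% of all genes). It was 0 without scaling (4.43% of all genes), 5 of 36 without EV 2 and HOTAIR 3 (13.9%, against 9.31%) and 6 with array weights (17.6%, against 18.5%). With single arrays left out it was 1 to 4 (2.94% to 11.4%, against 4.03% to 8.19% of all genes). Without the genes tested only through such an omission, ITGB7 among them, the 5 and the 4 were 4 and 3 of 34. The exact Mann-Whitney U test gave 0, since its smallest p is 0.0571, and the rank product gives no unadjusted p. The median of -0.025 became 0.018 without scaling, which moved that of all genes to 0.054, 0.028 without EV 2 and HOTAIR 3, 0.025 with array weights and -0.038 to 0.015 with single arrays left out. Signs reversed for ITGB1 (0.019 without scaling, 0.064 without EV 2 and HOTAIR 3, and -0.15 to 0.12 with single arrays left out), for ILK (0.017, 0.15, 0.17 with array weights, and -0.15 to 0.19) and for ITGB6 (-0.45 to 0.043 with single arrays left out). Over all members, signs differed from those above in 12 genes without EV 2, 11 with array weights, 10 without HOTAIR 2 and 0 to 7 in the other 16 limma settings. The cause was not tested. ITGB4 stayed between -0.54 and -0.32 over 19 limma settings, ITGA11 between 0.11 and 0.38, ITGA6 between 0.22 and 0.41 and ITGA5 between 0.11 and 0.35. Deviations of same-numbered arrays from their group means correlated at r = 0.39, -0.37 and -0.41, and those of EV 2 and HOTAIR 3 at r = 0.62. Because the pattern of EV 2 and HOTAIR 3 enters these values, they cannot show whether same-numbered arrays were paired. Under the replicate block, which leaves EV 4 without a partner, HOTAIR (3.59, limma adjusted p = 0.0772) and IGFBP2 (2.38, 0.127) lost their calls. After normexp they were at 1.06 and 1.22. Group sizes of 4 and 3 limit what could be detected.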

Other observations

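Outside the lists above, the markers of other cell types gave few signals. Of the platelet markers, GP9 was well above background on 6 arrays and PF4 on 1, and ITGA2B, GP1BA and PPBP on none. Of the endothelial markers, CDH5 was so on 4 arrays and PECAM1 on 1, and VWF, KDR and TEK on none. The summed platelet signal, in units of the 75th percentile, was 0.0435 to 0.0860 in EV and 0.0645 to 0.0874 in HOTAIR, and the endothelial one 0.0530 to 0.0693 and 0.0578 to 0.0608.

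The lower signal of upstream probes on EV 2 and HOTAIR 3 was also read in the 787 genes whose upstream probe was the brighter of the pair. There the median log2 difference was -0.12 on EV 2 and -0.085 on HOTAIR 3, against -0.26 and -0.19 over all 2509 genes. On the other arrays it ran from -0.021 on EV 1 to 0.099 on EV 4. The upstream probe was the lower in 57.8% of the 787 genes on EV 2 and 58.3% on HOTAIR 3. That share was 38.4% (HOTAIR 1) to 52.6% (EV 1) on the other arrays, so the arrays were less clearly set apart here. A dim BCAR1 probe, well above background on 0 arrays, is annotated on chromosome 15, whereas RefSeq places BCAR1 on chromosome 16.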
